A study of Mus musculus with 7 samples.

Results

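The genes described here encode 10 receptors that set how strongly a T cell responds to antigen: the costimulatory receptors CD28 (Cd28), ICOS (Icos) and CD226 (Cd226), and the coinhibitory or checkpoint receptors CTLA-4 (Ctla4), PD-1 (Pdcd1), TIGIT (Tigit), LAG-3 (Lag3), TIM-3 (Havcr2), BTLA (Btla) and CD96 (Cd96). They were chosen by symbol, from a list of costimulatory and coinhibitory receptors, out of the 51138 genes of the deposited count table. These receptors, and the lists of further genes below, were chosen with earlier results of these data known. All 10 had enough reads to be tested, among 15954 genes that did.

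RNA was sequenced from regulatory T cells (Tregs), CD4 T cells that restrain immune responses, sorted from the spleens of C57/BL6 mice whose Foxp3-expressing cells carry a red fluorescent protein (RFP-FoxP3+). The FP group (4 libraries) had been injected 72 h earlier with 20 µg of FP, a fusion protein of interleukin-2 and its receptor chain CD25. The PBS group (3 libraries) had been injected 72 h earlier with 100 µL of buffered saline. The comparison asks how the fusion protein changes Treg transcripts. Nothing states that each library came from a separate mouse, so p-values measure the spread between these libraries, which may in part be technical.

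CD28 and CTLA-4 bind the same B7 ligands, CD80 and CD86. CD28 costimulates, while CTLA-4, which Tregs express constitutively, binds these ligands more tightly and can strip them from antigen-presenting cells. ICOS, a relative of CD28, binds ICOSL and is a mark of effector Tregs. TIGIT, CD96 and CD226 form a second group, which competes for the nectin-like ligand CD155 (encoded by Pvr): CD226 costimulates and TIGIT opposes it.

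The proximal promoters of the called receptors with an entry in the RefSeq promoter table (build GRCm38.p6) are shown for the sequence around their starts. Windows of 6 of the 10 receptors were searched. Each runs 5′ to 3′ from 250 bases before to 50 bases after the annotated start, on the gene's own strand, and capitals mark a match to one of 3 motifs searched on both strands: TTCNNNGAA, the half-site pair bound by the STAT factors that act below the interleukin-2 receptor, TGTTTAC, the forkhead motif, and TGANTCA, the AP-1 motif. The windows are chr1:60908775-60909074 on the plus strand for Ctla4 (this start lies inside the longer GENCODE gene span given below), chr16:43664135-43664434 on the minus strand for Tigit, chr11:46454681-46454980 on the plus strand for Havcr2, chr16:46120199-46120498 on the minus strand for Cd96 and chr1:94052504-94052803 on the minus strand for Pdcd1.
Ctla4: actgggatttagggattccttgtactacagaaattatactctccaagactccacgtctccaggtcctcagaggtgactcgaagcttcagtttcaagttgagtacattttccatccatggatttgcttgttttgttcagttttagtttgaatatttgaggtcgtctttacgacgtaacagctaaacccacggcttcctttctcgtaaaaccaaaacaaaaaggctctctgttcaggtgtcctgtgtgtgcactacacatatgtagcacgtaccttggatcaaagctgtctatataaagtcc
Tigit: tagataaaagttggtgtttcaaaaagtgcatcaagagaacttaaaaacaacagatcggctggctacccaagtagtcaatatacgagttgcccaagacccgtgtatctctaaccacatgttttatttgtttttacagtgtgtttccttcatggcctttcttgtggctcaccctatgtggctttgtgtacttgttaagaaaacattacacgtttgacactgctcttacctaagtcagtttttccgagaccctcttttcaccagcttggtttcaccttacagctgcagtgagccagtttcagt
Havcr2: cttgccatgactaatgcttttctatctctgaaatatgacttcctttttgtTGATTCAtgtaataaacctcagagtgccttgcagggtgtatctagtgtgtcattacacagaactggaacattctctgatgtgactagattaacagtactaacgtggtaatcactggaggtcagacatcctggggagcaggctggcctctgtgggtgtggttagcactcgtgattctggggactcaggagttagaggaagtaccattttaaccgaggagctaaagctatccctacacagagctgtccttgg
Cd96: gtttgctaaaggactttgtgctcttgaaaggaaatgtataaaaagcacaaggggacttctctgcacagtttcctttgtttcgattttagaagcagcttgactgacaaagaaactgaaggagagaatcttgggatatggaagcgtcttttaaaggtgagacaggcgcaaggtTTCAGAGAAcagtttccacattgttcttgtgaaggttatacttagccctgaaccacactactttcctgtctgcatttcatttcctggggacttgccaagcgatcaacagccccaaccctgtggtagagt
Pdcd1: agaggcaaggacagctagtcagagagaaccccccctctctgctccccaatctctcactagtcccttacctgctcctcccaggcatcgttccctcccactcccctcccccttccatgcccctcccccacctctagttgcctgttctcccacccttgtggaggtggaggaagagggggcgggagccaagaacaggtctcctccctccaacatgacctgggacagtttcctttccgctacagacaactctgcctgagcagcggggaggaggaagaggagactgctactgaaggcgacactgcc
Of these 5 windows, Havcr2 held the AP-1 letters, beginning 200 bases before the start, and Cd96 held the STAT letters, beginning 79 bases before it. The windows of Ctla4, Tigit and Pdcd1, and that of Btla, held none of the 3. Among 32544 promoters of the same length, 8.33% held the STAT letters, 3.66% the forkhead letters and 7.79% the AP-1 letters.

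The libraries held between 9956509 and 13429878 counts each, and 3 counts, the floor used here for a gene with none, came to between 0.214 and 0.322 CPM (a gene's count as a share of its library, with library sizes scaled by the TMM factors that edgeR estimates). The FP and PBS libraries also stood apart in their makeup. The Treg and T cell identity genes, among them the interleukin-2 receptor gene Il2ra and the Treg factor gene Ikzf2, summed to between 5557 and 6573 CPM in FP libraries, against 3574 to 4048 CPM in PBS libraries; Foxp3, Cd3e and Cd4 of this list overlapped between groups and were not called. The 12 macrophage and monocyte markers, led by Vcam1 and Csf1r, summed to between 22.8 and 115 CPM in FP libraries and between 580 and 1440 CPM in PBS libraries, with all 12 lower in FP. The 7 dividing-cell genes, led by Mki67 and Top2a, summed to between 1724 and 3243 CPM in FP libraries and between 118 and 158 CPM in PBS libraries, with all 7 higher in FP. Dendritic cell markers (Zbtb46, Itgax) summed to between 11.7 and 15.8 CPM in FP libraries and 25.2 and 37.1 CPM in PBS libraries. Of these 7 genes 6 had a lower mean in FP, and Xcr1 (0.771 CPM in FP, 0.533 CPM in PBS) a higher one. Zbtb46 alone averaged 11.2 CPM in FP and 20.0 CPM in PBS, most of each mean sum. Natural killer markers (Eomes, Klrb1c) summed to between 0.967 and 1.56 CPM in FP and 4.03 and 5.96 CPM in PBS. Of the 6 natural killer genes, Eomes and Klrb1c were the 2 lower in FP, and Klra4 and Klra8 were at 0 in all libraries. Ncr1 (0.098 CPM in FP) had 2 reads in each of FP replicates 1 and 2. Klre1 (0.018 CPM in FP) had 1 read, in FP replicate 4. Both genes were at 0 in PBS, and both FP means lay below the floor. Neutrophil markers (Csf3r, S100a9) summed to between 0.752 and 2.04 CPM in FP and 2.21 and 9.90 CPM in PBS. Of these 5 genes 1 was lower in FP, Csf3r (0.453 CPM in FP, 5.80 CPM in PBS); S100a9 averaged 0.381 CPM in FP and 0.049 CPM in PBS, and Retnlg was at 0 in all libraries. The sums overlapped between groups for CD8 T cell genes (Cd8b1, Cd8a: 7.84 to 12.9 CPM in FP, 8.93 to 9.80 CPM in PBS), B cell genes (Cd79b, Cd22: 24.0 to 32.6 CPM in FP, 23.5 to 41.0 CPM in PBS) and erythroid genes (Hbb-bs, Alas2: 9.43 to 24.6 CPM in FP, 11.7 to 27.8 CPM in PBS). Of the 7 B cell genes, 6 had a lower mean in FP, among them Cd22 (4.45 CPM in FP, 7.46 CPM in PBS). Cd79b, the most abundant of them, was higher in FP (15.6 CPM in FP, 9.36 CPM in PBS). Each list whose groups did not overlap had a two-sided exact permutation p of 0.0571 over 35 assignments, the smallest this design can give. Its adjusted p was 0.0857 over the 9 lists. The part of these differences in the receptor values was not tested, and in such bulk RNA fewer cells of a type and less RNA per cell cannot be told apart.

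Of the 10 receptor genes, 6 passed an adjusted p of 0.05 (edgeR's quasi-likelihood test, Benjamini-Hochberg over all genes tested; such genes are said to be called). Icos, Tigit, Havcr2 and Ctla4 rose after FP, Cd96 and Pdcd1 fell, and Btla, Cd28, Cd226 and Lag3 were not called. Over all genes, 39.5% were called in either direction, 21.0% higher and 18.5% lower. In 7 of the 10 the FP and PBS libraries did not overlap, against 46.7% of all genes; FP lay above PBS in 4 of them and below in 3, against 23.2% and 23.5% of all genes. The median log2 fold change, FP over PBS, was 0.13 over the 10 receptors and -0.05 over all genes.

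**Figure D1:**
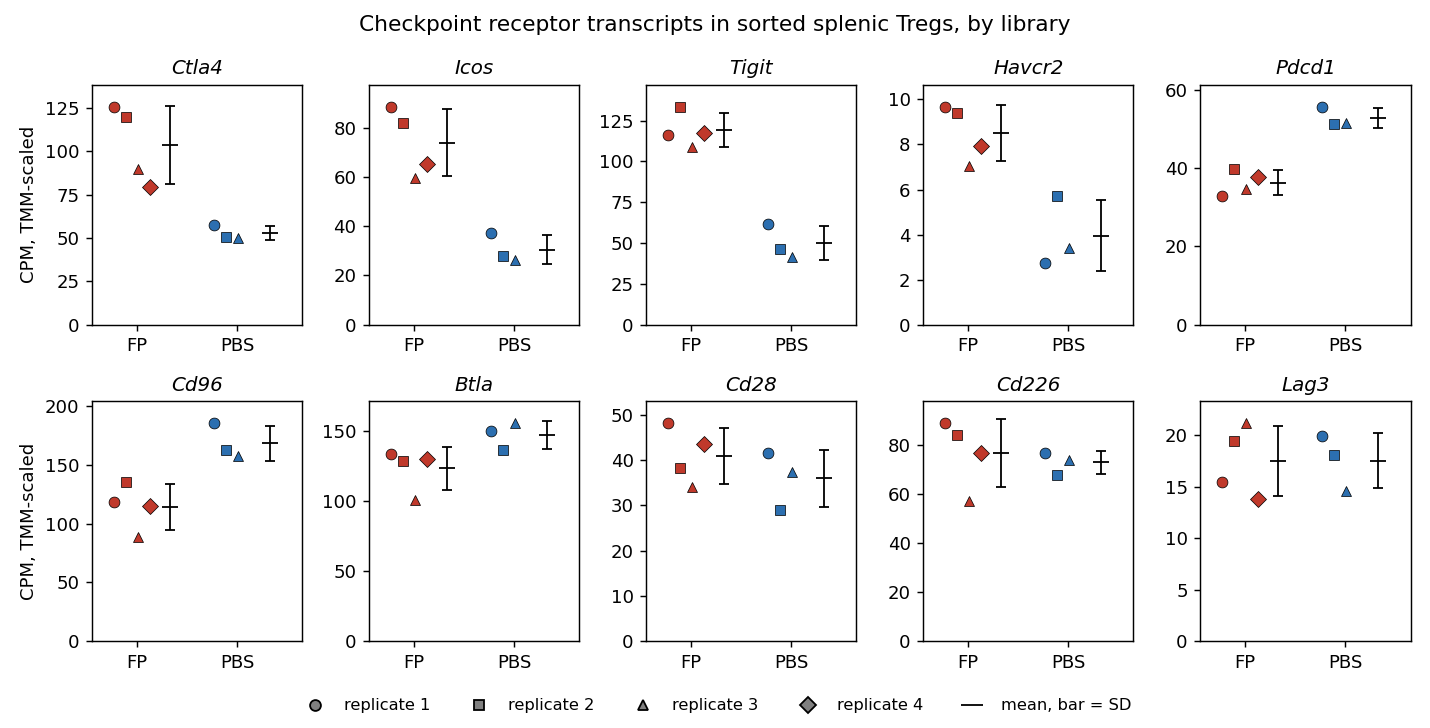
TMM-scaled CPM of the 10 receptor genes (vertical axes, from 0, a separate scale per gene) in the 4 FP and 3 PBS libraries; each point is a library and the bar at the right of each group is the mean ± SD. The FP points lie above all PBS points for Ctla4, Icos, Tigit and Havcr2, below them for Pdcd1, Cd96 and, narrowly, Btla, and among them for Cd28, Cd226 and Lag3.

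Cd28, the founding costimulatory receptor (chr1:60716800-60773359, plus strand, GRCm38, ENSMUSG00000026012.2), had 48.2, 38.2, 34.0 and 43.6 CPM in FP libraries, against 41.5, 29.0 and 37.4 CPM in PBS libraries. The groups overlapped, and FP replicate 3 lay below the highest and the middle PBS libraries. The log2 fold change was 0.19 (95% interval -0.15 to 0.53, adjusted p = 0.354 by edgeR), and it turned to -0.01 under upper-quartile scaling and to -0.08 when libraries were scaled by size alone.

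Icos (chr1:60977927-61000320, plus strand, ENSMUSG00000026009.14) had 88.6, 82.0, 59.5 and 65.5 CPM in FP libraries and 37.1, 27.9 and 26.2 CPM in PBS libraries. Every FP library was above every PBS library, with FP replicates 1 and 2 the highest. Icos rose by 1.28 log2 units (SE 0.17, adjusted p = 0.000326 by edgeR), a 2.43-fold change with a 95% interval of 1.87 to 3.16.

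Ctla4 (chr1:60887000-60915832, plus strand, ENSMUSG00000026011.13) had 126, 120, 89.5 and 79.7 CPM in FP libraries, against 57.4, 50.7 and 50.2 CPM in PBS libraries. The groups did not overlap, and the FP libraries spread more widely (104 ± 22.5 CPM, SD, n = 4) than the PBS libraries (52.8 ± 4.03 CPM, SD, n = 3). Ctla4 rose 1.96-fold (95% interval 1.53 to 2.51, adjusted p = 0.00112 by edgeR). The interval of Icos, 1.87 to 3.16, overlapped that of Ctla4.

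Pdcd1 encodes PD-1, the receptor for PD-L1 and PD-L2 (chr1:94038305-94052553, minus strand, ENSMUSG00000026285.7). It had 32.8, 39.8, 34.5 and 37.8 CPM in FP libraries and 55.6, 51.2 and 51.6 CPM in PBS libraries. All FP libraries were below all PBS libraries, and both groups lay within narrow ranges. The log2 fold change was -0.54 (SE 0.10, adjusted p = 0.00217 by edgeR), so that PD-1 transcripts in FP Tregs were at 0.687 times the PBS level (95% interval 0.587 to 0.803).

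Btla, whose product binds the herpesvirus entry mediator (chr16:45224315-45257670, plus strand, ENSMUSG00000052013.14), had 133, 128, 101 and 130 CPM in FP libraries and 150, 136 and 155 CPM in PBS libraries. Every FP library was below every PBS library, with replicate 3 of FP well under the other FP libraries. The log2 fold change of -0.26 (95% interval -0.50 to -0.02) was not called (adjusted p = 0.0847 by edgeR), but it was with upper-quartile scaling (-0.46, adjusted p = 0.00707 by edgeR) and with library-size scaling (-0.53, adjusted p = 0.00551 by edgeR).

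Among the receptors of nectin-like ligands, Tigit (chr16:43648867-43664146, minus strand, ENSMUSG00000071552.4) had 116, 133, 109 and 118 CPM in FP libraries and 61.4, 46.5 and 41.3 CPM in PBS libraries. The lowest FP library was well above the highest PBS library, and the FP libraries lay close together. Tigit rose 2.40-fold (95% interval 1.94 to 2.96, adjusted p = 9.38e-05 by edgeR), the smallest p among the 10 receptors.

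Cd96 (chr16:46035657-46120251, minus strand, ENSMUSG00000022657.9) encodes a receptor for the same CD155 ligand. Its level was 118, 135, 88.4 and 115 CPM in FP libraries, against 185, 162 and 157 CPM in PBS libraries. The groups did not overlap. Cd96 fell by 0.56 log2 units (SE 0.13, adjusted p = 0.00745 by edgeR), to 0.679 times the PBS level, so 2 receptors of 1 ligand moved in opposite directions.

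Cd226 (ENSMUSG00000034028.15, chromosome 18), the costimulatory member of this group, had 88.8, 83.9, 57.3 and 76.7 CPM in FP libraries and 76.8, 67.7 and 73.9 CPM in PBS libraries. FP replicates 1 and 2 were above and replicate 3 below all PBS libraries. The log2 fold change was 0.07 (95% interval -0.23 to 0.38, adjusted p = 0.698 by edgeR), and it turned to -0.13 with upper-quartile scaling, to -0.20 with library-size scaling and to -0.05 per count of the T cell receptor component gene Cd3e.

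Lag3, whose product binds MHC class II (chr6:124904361-124911705, minus strand, ENSMUSG00000030124.2), had 15.5, 19.4, 21.2 and 13.8 CPM in FP libraries and 19.9, 18.0 and 14.6 CPM in PBS libraries. The highest and the lowest of the 7 libraries were both FP libraries. The mean was 17.5 CPM in each group, and the 95% interval of the log2 fold change ran between -0.40 and 0.39 (adjusted p = 0.986 by edgeR); its sign depended on the scaling, the filter and the libraries used.

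Havcr2 encodes TIM-3, a receptor of galectin-9 that is also made by myeloid cells (chr11:46454935-46481255, plus strand, ENSMUSG00000020399.14). It had 9.67, 9.41, 7.05 and 7.92 CPM in FP libraries and 2.74, 5.72 and 3.42 CPM in PBS libraries, the lowest counts of the 10 genes (77 to 111 counts in FP, 31 to 78 counts in PBS). The groups did not overlap, and the 3 PBS libraries ran in the same order as their macrophage marker sums, with PBS replicate 2 the highest in both. Havcr2 rose by 1.09 log2 units (SE 0.26, adjusted p = 0.00826 by edgeR) and by 1.46 without that library. The part of macrophages in the Havcr2 values was not tested.

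**Figure D2:**
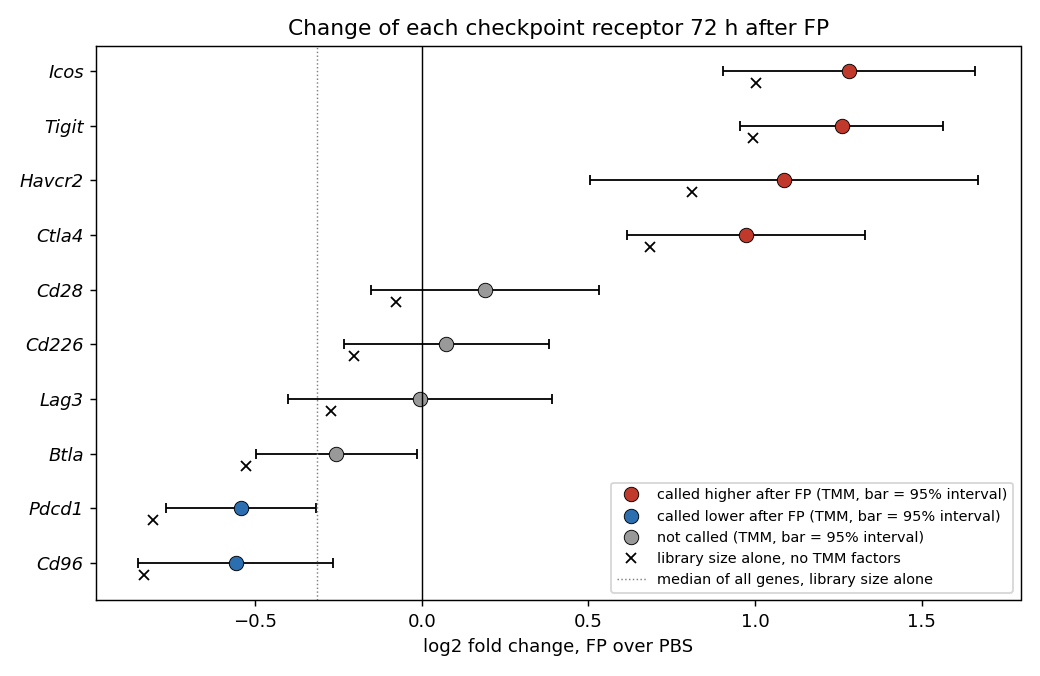
Log2 fold change, FP over PBS (horizontal axis), of the 10 receptor genes, as circles with 95% intervals from the TMM-scaled edgeR fit; crosses give the same value with library-size scaling, and the dotted line is that setting's median over all genes, -0.31. The 4 called higher genes lie between 0.97 and 1.28 and the 2 called lower genes at -0.54 and -0.56, while every cross is shifted to the left.

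The shift between scalings ran through the whole table: over all genes the median log2 fold change was -0.05 with TMM, -0.25 with upper-quartile scaling and -0.31 with library-size scaling. Of the called genes, 53.2% were higher after FP with TMM, 33.2% with upper-quartile scaling and 28.6% with library-size scaling. Relative to each setting's own median the receptors hardly moved: Ctla4 was at 1.02 with TMM and 1.0 with library-size scaling, Pdcd1 at -0.49 in both, and Cd28 at 0.24 in both. The 6 called receptors kept their direction and their call in each of the 15 other fits, with the largest adjusted p, 0.0435 by edgeR, for Havcr2 without PBS replicate 3.

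Ratios of the read counts of 2 receptors within a library do not depend on how libraries are scaled. They also depend on transcript length, so the difference between groups carries the comparison, not the ratio itself. For Ctla4 over Cd28, the receptors that share B7 ligands, the ratio was 2.61, 3.14, 2.64 and 1.83 in FP libraries and 1.38, 1.75 and 1.34 in PBS libraries. The FP libraries were all above the PBS libraries, by 0.76 on the log2 scale on average, although FP replicate 4 and PBS replicate 2 lay close together.

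For Tigit over Cd226 the ratio was 1.31, 1.59, 1.90 and 1.53 in FP libraries, against 0.799, 0.686 and 0.559 in PBS libraries, a mean log2 difference of 1.22. For Tigit over Cd96 it was 0.983, 0.989, 1.23 and 1.02 in FP libraries and 0.331, 0.287 and 0.263 in PBS libraries, a mean log2 difference of 1.85, the widest of the 7 pairs examined. For Ctla4 over Pdcd1 it was 3.83, 3.01, 2.59 and 2.11 in FP libraries and 1.03, 0.991 and 0.973 in PBS libraries, a mean log2 difference of 1.50. The mean log2 difference was 1.09 for Icos over Cd28, 0.33 for Icos over Ctla4 and -0.63 for Cd96 over Cd226. In none of the 7 pairs did the FP and PBS libraries overlap, against 46.7% of single genes without overlap. Each pair held a called receptor whose own groups did not overlap, so this count largely restates those calls. No test was run on these ratios.

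**Figure D3:**
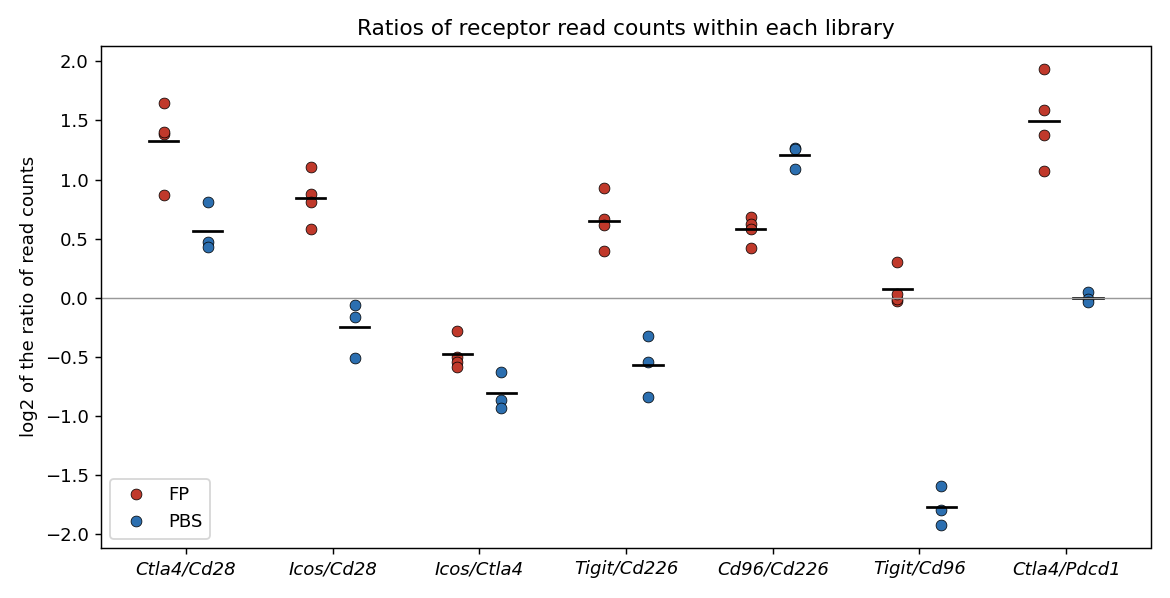
Log2 of the ratio of read counts of 2 receptor genes within each library (vertical axis) for 7 pairs, with FP libraries left of PBS libraries and a bar at each mean. The gap is widest for Tigit over Cd96, and Cd96 over Cd226 is the pair in which FP lies below PBS.

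Levels can be compared between receptors per length of exon, as TMM-scaled CPM divided by the exon length in kilobases (RPKM). In FP Tregs Tigit was highest, at 130 ± 11.2 RPKM (SD, n = 4), and its libraries did not overlap those of any other receptor. Cd96 (52.3 ± 8.84 RPKM), Ctla4 (44.5 ± 9.67 RPKM) and Btla (36.3 ± 4.43 RPKM) followed, each overlapping its neighbour in the order. Icos (21.5 ± 3.98 RPKM), Pdcd1 (18.8 ± 1.63 RPKM) and Cd226 (15.7 ± 2.83 RPKM) formed another overlapping run, then Lag3 (8.29 ± 1.61 RPKM) and Cd28 (6.70 ± 1.01 RPKM), and Havcr2 was lowest at 3.13 ± 0.458 RPKM.

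In PBS Tregs the order was led by Cd96 at 77.0 ± 6.88 RPKM (SD, n = 3), with Tigit (54.1 ± 11.3 RPKM) overlapping Btla (43.3 ± 2.92 RPKM). Pdcd1 (27.4 ± 1.28 RPKM) stood above Ctla4 (22.7 ± 1.73 RPKM) per exon length, but per longest annotated transcript Pdcd1 was at 27.4 ± 1.28 RPKM and Ctla4 at 27.3 ± 2.08 RPKM, and their libraries overlapped. Cd226 (14.9 ± 0.951 RPKM), Icos (8.86 ± 1.71 RPKM), which overlapped Lag3 (8.30 ± 1.26 RPKM), Cd28 (5.88 ± 1.04 RPKM) and Havcr2 (1.45 ± 0.574 RPKM) came below. That other length also moved Cd28 by more than the spread between libraries, to 9.43 RPKM in FP and 8.28 RPKM in PBS, where it then overlapped Lag3, and Cd226 in PBS, to 16.2 RPKM.

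**Figure D4:**
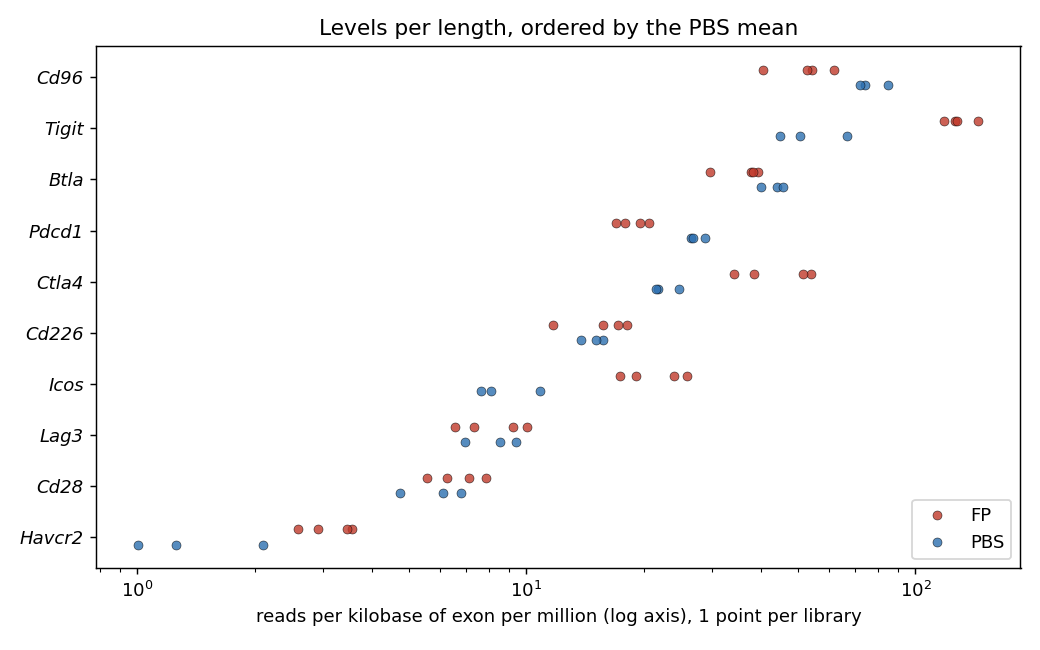
RPKM on a log axis for each receptor, 1 point per library, FP above PBS, with genes ordered from the highest PBS mean at the top. In FP Tigit lies above every other receptor, while in PBS it overlaps Btla; Ctla4 lies above Pdcd1 in FP, and in PBS their order depends on the length used.

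Cd28, Ctla4 and Icos are neighbours on chromosome 1, within 284 kb. Of the 9 genes tested in that span, 5 rose and none fell after FP. Beside Ctla4 and Icos these were the unnamed models Gm38137 (log2 fold change 2.40) and Gm37039 (0.75) and the pseudogene Rpl18-ps1 (1.35), all at a mean of 10.8 CPM or less in FP and 6.44 CPM or less in PBS, and chosen after their values were seen. Rpl18-ps1 lies within Ctla4 and Gm37039 within Icos, neither overlapping an annotated exon of that gene, so unspliced reads of the host gene could count there. Tigit, Btla and Cd96 lie within 2471 kb on chromosome 16, where 5 of 28 genes tested rose and 5 fell. Over all genes 21.0% rose and 18.5% fell.

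The genes whose log2 CPM followed Ctla4 most closely over the 7 libraries, among 6804 genes compared, included Crip1 (Pearson r 0.999, log2 fold change 2.21) and Ppib (r 0.999, 1.09), which encodes the chaperone cyclophilin B. Those closest to Icos were Ahr (r 0.999, 0.73), the aryl hydrocarbon receptor gene, Cpd (r 0.997, 1.15) and Cdc42 (r 0.995, 0.95), a small GTPase gene. All points share the difference between groups and the same libraries, so such values describe these 7 libraries only.

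Around the receptors, 87 of 93 listed genes in 8 lists were tested; 32 rose and 15 fell, against 21.0% higher and 18.5% lower over all genes. With library-size scaling the same lists had 17 higher and 34 lower, while 12.7% of all genes were called higher and 31.6% lower.

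Of the ligands of the CD28 family, 6 of 8 were tested. Of these 2 rose and 2 fell, against 21.0% and 18.5% of all genes (median log2 fold change of the list 0.03). Icosl, the gene of the ICOS ligand, had 19.5, 27.9, 22.4 and 23.7 CPM in FP libraries and 9.89, 10.0 and 11.7 CPM in PBS libraries, and rose by 1.15 log2 units (SE 0.16, adjusted p = 0.000345 by edgeR). Its groups did not overlap. Cd80 also rose (12.5 ± 1.44 CPM in FP, 7.73 ± 0.725 CPM in PBS, adjusted p = 0.00667 by edgeR), but missed the threshold with library-size scaling (adjusted p = 0.0882 by edgeR).

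Cd86, the second ligand of CD28 and CTLA-4, had 25.5, 17.5, 15.2 and 22.2 CPM in FP libraries and 34.7, 56.4 and 49.3 CPM in PBS libraries. It fell by 1.22 log2 units (SE 0.20, adjusted p = 0.00119 by edgeR), with no overlap. CD86 is abundant on antigen-presenting cells, and the 3 PBS libraries had the same order for Cd86 as for the macrophage marker sum (580, 1440 and 992 CPM); that sum was between 22.8 and 115 CPM in FP. The part of those cells in the Cd86 value was not tested. The same PBS order was seen in Cd80 (7.07, 8.50 and 7.62 CPM), which rose, and in Tnfrsf14. An order of 3 libraries can be shared by chance, so here and for other genes it is a description only. Tnfrsf14, the herpesvirus entry mediator gene bound by BTLA, fell by 0.46 (35.1 ± 5.32 CPM in FP, 48.4 ± 3.82 CPM in PBS, adjusted p = 0.0171 by edgeR), and missed the threshold without PBS replicate 2 (adjusted p = 0.0847) or 3 (adjusted p = 0.0625). Cd274 (0.15) and Pdcd1lg2 (-0.10), the PD-L1 and PD-L2 genes, named after their values were seen, were not called.

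Of the nectin-like ligands, 5 of 6 were tested, 1 rose and 1 fell (median -0.24), against 21.0% and 18.5% of all genes. Nectin1, which encodes an adhesion molecule that binds CD96, had 32.6, 39.0, 36.8 and 31.5 CPM in FP libraries against 4.33, 4.11 and 3.50 CPM in PBS libraries. Its groups were far apart, and it rose by 3.13 log2 units (SE 0.15, adjusted p = 1.3e-06 by edgeR), more than any gene on the 8 lists. Cadm1, the ligand of the receptor CRTAM, had 1.93, 2.58, 0.183 and 1.14 CPM in FP libraries and 18.0, 46.3 and 36.3 CPM in PBS libraries, and fell by 4.53 (SE 0.53, adjusted p = 0.000415 by edgeR). Its order among the PBS libraries was that of the macrophage marker sum, whose part in it was not tested. Pvr, the CD155 gene, chosen after its value was seen, had a log2 fold change of -0.23 and was not called.

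Of the ligands of LAG-3 and TIM-3, the 3 tested of 5 all rose (median 1.12), and did so in each of the 15 other fits. Those fits draw on the same libraries. The share of all genes called higher was 21.0% with TMM, 15.0% with upper-quartile scaling and 12.7% with library-size scaling. Lgals9, which encodes the TIM-3 ligand galectin-9, was at 154 ± 24.3 CPM in FP and 85.9 ± 9.97 CPM in PBS (log2 fold change 0.84, adjusted p = 0.000939 by edgeR). Lgals3, for galectin-3, was at 25.6 ± 10.3 CPM in FP and 7.99 ± 2.03 CPM in PBS (1.67, adjusted p = 0.00339 by edgeR). Hmgb1, for a chromatin protein that TIM-3 can bind, was at 235 ± 69.8 CPM in FP and 108 ± 14.7 CPM in PBS (1.12, adjusted p = 0.00532 by edgeR), and shares sequence with many pseudogenes, so its count is uncertain. The dividing-cell sum, at least 1724 CPM in FP and at most 158 CPM in PBS, moved in the same direction and its part was not tested.

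Of 17 other costimulatory and coinhibitory receptors, 16 were tested, 4 rose and 3 fell (median -0.15), against 21.0% and 18.5% of all genes. The number called lower was 8 with upper-quartile scaling (30.2% of all genes) and 9 with library-size scaling (31.6% of all genes). Cd200r1, an inhibitory receptor gene, rose (66.1 ± 9.72 CPM in FP, 27.4 ± 1.71 CPM in PBS, adjusted p = 6.77e-05 by edgeR) while Cd200, the gene of its ligand, fell (24.2 ± 2.84 CPM in FP, 40.0 ± 3.99 CPM in PBS, adjusted p = 0.00137 by edgeR). Both lie in the chromosome 16 span of Tigit, Btla and Cd96. Cd48 (log2 fold change 1.37) and Cd2 (0.82), which encode an adhesion pair, rose, and so did Slamf6 (0.30), whose call was lost with upper-quartile scaling, library-size scaling, and without PBS replicate 1 or 2. Cd84 (-0.43), of the same SLAM family, fell, as did Cd244a (-2.68), named after its value was seen and at 0.911 CPM in FP and 5.90 CPM in PBS. The PBS libraries had 3.36, 8.21 and 6.13 CPM of Cd244a, the order of their macrophage marker sums, whose part in it was not tested.

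Of 10 genes for the trafficking of CTLA-4, which cycles between the surface and vesicles, 9 rose and 1 fell (median 0.59). Over all genes 21.0% rose and 18.5% fell. With upper-quartile scaling 7 were called higher (15.0% of all genes), and with library-size scaling 4 (12.7% of all genes). The dividing-cell sum was also higher in FP, and its part in these values was not tested. Trat1, whose product TRIM carries CTLA-4 to the surface, had 116, 109, 70.6 and 57.4 CPM in FP libraries and 39.9, 32.0 and 34.3 CPM in PBS libraries (log2 fold change 1.32, SE 0.24, adjusted p = 0.00285 by edgeR). Its FP libraries all exceeded the PBS libraries, and ran in the same order as those of Ctla4. That order was not particular to this pair: Hmgb1 (302, 275, 217 and 145 CPM in FP libraries) and Irf4 had it too. Ap2m1, the clathrin adaptor subunit that internalises CTLA-4, rose by 0.74 (SE 0.14), the small GTPase gene Rab8a by 0.65 (SE 0.11) and Def6, a partner of recycling vesicles, by 0.43 (SE 0.08); the call of Def6 was lost with library-size scaling. The others, named after their values were seen, were Arf1 (0.65), Ap1m1 (0.60), Rab11a (0.59), Lrba (0.38), whose product keeps CTLA-4 out of lysosomes, and Ap2a1 (0.33). Pld1 (-1.43), likewise named after the fact, fell at a mean of 1.45 CPM in FP and 3.87 CPM in PBS, and was not called without PBS replicate 2 or 3; its PBS libraries (1.94, 5.64 and 4.03 CPM) also ran in the order of the macrophage marker sums, whose part was not tested.

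Of 14 genes of signalling below the CD28 family, 3 rose and 1 fell (median 0.03), against 21.0% and 18.5% of all genes. Grb2, an adaptor (0.52, SE 0.11), Prkcq, the protein kinase C theta gene (0.31, SE 0.09), and Pdpk1, a kinase gene (0.24, SE 0.08), rose. With library-size scaling 3 genes of the list were called lower (31.6% of all genes). None of the 3 that rose was called in that scaling, and Pdpk1 turned to -0.03. Grb2 was the 1 gene of these 3 still called without PBS replicate 2 or without PBS replicate 3, and Pdpk1 was also lost without PBS replicate 1 or FP replicate 2 or 3 and with no filter (adjusted p = 0.0662 by edgeR). With upper-quartile scaling Prkcq (adjusted p = 0.297 by edgeR) and Pdpk1 (adjusted p = 0.761 by edgeR) were not called. In that scaling 3 genes were called lower (30.2% of all genes). The other 10, among them the phosphoinositide 3-kinase genes Pik3r1 (0.06), Pik3cd (0.16) and Pik3ca (-0.02), named after their values were seen, were not called.

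Of 13 phosphatases and adaptors of inhibitory receptors, 4 rose and none fell (median 0.01), against 21.0% and 18.5% of all genes. The 4 were Sh2d1a (0.49, SE 0.13), the SAP adaptor gene, Csk (0.38, SE 0.10), Bag6 (0.29, SE 0.09), whose product binds TIM-3, and Inpp5d (0.25, SE 0.09), the SHIP-1 gene. None of the 4 was called with upper-quartile scaling or library-size scaling, and Inpp5d turned to -0.01 with the second. In each of these scalings 6 genes of the list were called lower, against 30.2% and 31.6% of all genes. None of the 4 was called without PBS replicate 3, 1 without PBS replicate 2, and 2 without FP replicate 2 or 3. Sh2d1a shares 1465 exon bases with Tenm1 on the opposite strand, and since the strand setting of the counting is not given in the sources used here, reads of the pair may be mixed.

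Of 20 regulators of checkpoint receptor transcription and mRNA decay, 6 rose, 7 fell and 7 were not called (median -0.18). The shares of all genes were 21.0% higher and 18.5% lower. Prdm1, which encodes BLIMP-1, a transcription factor of effector T cells, had 71.5, 67.0, 60.7 and 55.3 CPM in FP libraries and 34.1, 31.1 and 31.2 CPM in PBS libraries. Its groups were well separated (log2 fold change 0.98, SE 0.11, adjusted p = 0.000124 by edgeR). Tbx21, the T-bet gene, rose by 1.14 (SE 0.18), Nfatc2, an NFAT gene, by 0.72 (SE 0.10) and Maf by 0.47 (SE 0.09), Maf being lost with upper-quartile scaling and library-size scaling. Batf (1.18) and Irf4 (0.62), partners at AP-1 composite sites, rose and were named after their values were seen.

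Tcf7, the TCF-1 gene of resting and stem-like T cells, had 187, 248, 223 and 252 CPM in FP libraries and 447, 411 and 409 CPM in PBS libraries. It fell by 0.89 log2 units (SE 0.11, adjusted p = 0.00022 by edgeR), with no overlap. Bcl6, the factor of follicular T cells, fell by 1.37 (15.7 ± 4.88 CPM in FP, 40.8 ± 1.47 CPM in PBS), Zc3h12a, the Regnase-1 gene whose product degrades Icos and other mRNAs, fell by 0.55 (51.3 ± 4.28 CPM in FP, 75.1 ± 3.48 CPM in PBS), and Tox, linked to T cell exhaustion, fell by 0.28, with a call lost in 7 of the 15 other fits. Eomes (-2.12), Foxo1 (-0.26) and Rc3h2 (-0.25) were named after their values were seen. Eomes was low, at 0.878 CPM in FP and 3.88 CPM in PBS, and is also one of the natural killer markers above. The number of genes called lower was 4 without FP replicate 1 or 3 or any 1 PBS replicate, 4 with the DESeq2 test or no filter, and 11 with library-size scaling. Foxp3 was not called (540 ± 52.9 CPM in FP, 491 ± 7.24 CPM in PBS, log2 fold change 0.14, adjusted p = 0.292 by edgeR), and its exons overlap those of Flicr and other genes.

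**Figure D5:**
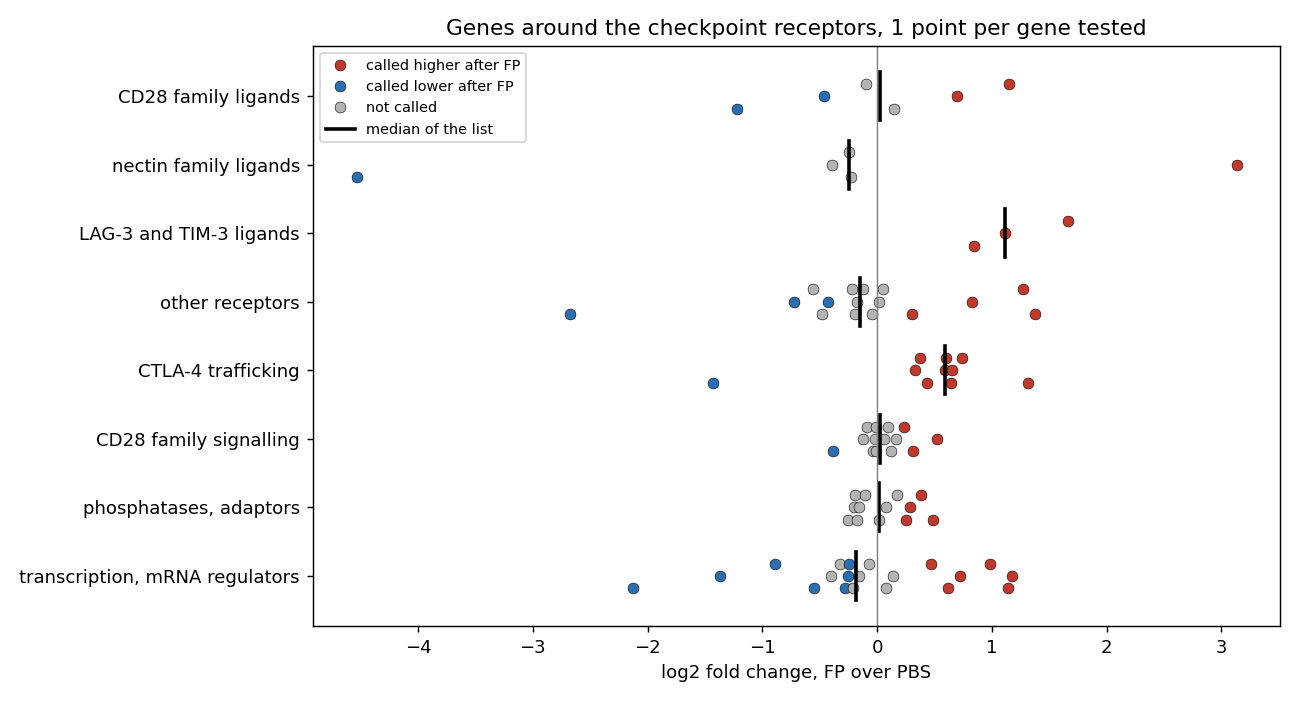
Log2 fold change, FP over PBS (horizontal axis), of each tested gene on 8 lists (rows); colour gives the call and the black bar the median of the list. All points of the LAG-3 and TIM-3 ligands and all but 1 of the CTLA-4 trafficking genes lie right of 0, and the signalling and phosphatase lists lie close to 0.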

How the data were processed

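Gene counts of 7 libraries (4 FP, 3 PBS) were used as the authors deposited them. Per the labels, the authors made libraries from 25 ng of total RNA after ribosomal RNA depletion; per the series' design text, reads from a NextSeq 500 were aligned to GRCm38 with STAR and counted per GENCODE M13 gene with featureCounts, and tested with DESeq2. The submitters' processing notes give STAR 2.5.0b and featureCounts 1.5.0. Counting mode for strand and multiply mapped reads is not given in the sources used here. No value column of another sample was in the table.

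The counts were tested with edgeR 4.0.16 in R 4.3.3 (filterByExpr, TMM, robust quasi-likelihood fit, no covariate), FP over PBS, with Benjamini-Hochberg adjustment over 15954 genes and a threshold of 0.05. The fit was also run on simulated counts with few changed genes and the same spread for every gene. These data differ in both, so that check does not measure the error of the fit here. Standard errors and 95% intervals come from the same fit. CPM uses TMM-scaled library sizes; RPKM divides by the exon union. Symbols and positions came from GENCODE M21 (GRCm38), newer than the authors' M13, which matched 50376 of 51138 IDs. Libraries of 1 group differed by more than sampling noise in every pair (chi-square per degree of freedom of 3.46 or more).

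Alternatives were 3 other scalings, DESeq2 1.42.0 and limma 3.58.1 (voom) tests, no filter and another filter on low counts, each library left out, a replicate block, and, added after seeing the data, ratios to Cd3e. Intervals and floors cover counting error and the spread between libraries only.

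Named genes were all 10 receptors; from each list, up to 4 called genes per direction with the smallest p and a mean of at least 5 CPM; the 3 genes most correlated with Ctla4 and with Icos at a mean of at least 20 CPM; and the 2 most abundant markers of each cell type. A few genes that this rule names are not reported here. The receptors and lists were chosen with earlier results of these data known.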

Additional observations from a re-analysis of the deposited data

Results flagged for a closer look

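Of 61 values examined in the 4 FP libraries, 1 stood apart from the others of its group by Dixon's ratio, where chance flags about 1 in 20. Btla in FP replicate 3, at 101 CPM, lay below the other FP libraries at 133, 128 and 130 CPM, with a gap of 0.841 of the group's range. Without that library the log2 fold change of Btla was -0.17, against -0.26 with it, and neither was called.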

How the results depend on the processing

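Ctla4, Icos, Tigit, Havcr2, Pdcd1 and Cd96 kept direction and call in all 15 refits. Btla was called with upper-quartile scaling (-0.46), library-size scaling (-0.53) and the replicate block (-0.29, adjusted p = 0.0353 by edgeR). Cd28 turned to -0.013 and Cd226 to -0.13 under upper-quartile scaling; under library-size scaling they were -0.079 and -0.20. Per Cd3e count Cd226 was -0.047. Cd28 and Cd226 were not called in any fit. Lag3 was 0.014 with DESeq2 size factors, 0.032 with the DESeq2 test, 0.017 with no filter, 0.097 with the replicate block and between -0.12 and 0.12 with a library left out. Pdpk1 (-0.035) and Inpp5d (-0.013) turned with library-size scaling. The listed genes called higher fell to 17 with library-size scaling (12.7% of all genes). Those called lower rose to 32 with upper-quartile scaling (30.2% of all genes) and 34 with library-size scaling (31.6%). The median of all genes was -0.25 with upper-quartile scaling and -0.31 with library-size scaling. All called genes numbered 6308, and between 4088 (without PBS replicate 3) and 7277 (without FP replicate 4) with a library left out. The labels tie same-numbered libraries by the number alone. Their deviations correlated at 0.219, 0.0702 and 0.0966, and not every library correlated best with its own number. FP replicate 4 correlated at 0.394 with PBS replicate 3 and at -0.329 with PBS replicate 1, the extremes of all pairs. What lies behind these correlations was not tested. The replicate block gave 7870 called genes. At these depths Havcr2, with 31 to 111 counts, was the least precisely measured receptor.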

Other observations

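In the chromosome 16 span that holds Tigit, Btla and Cd96, the other genes called after FP, named here after their values were seen, were mostly not receptors. Atp6v1a, a proton pump subunit gene (58.4 CPM in FP, 33.2 CPM in PBS, log2 fold change 0.81), Naa50, a protein acetyltransferase gene (99.7 CPM in FP, 59.5 CPM in PBS, 0.75), and Atg3, an autophagy gene (66.3 CPM in FP, 49.9 CPM in PBS, 0.41), rose. Qtrt2, a tRNA modification gene (11.7 CPM in FP, 23.5 CPM in PBS, -1.0), Ccdc191 (6.25 CPM in FP, 10.7 CPM in PBS, -0.78) and Boc (1.61 CPM in FP, 5.89 CPM in PBS, -1.85) fell.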
